A study of Homo sapiens with 6 samples.

Results

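The subject here is 10 genes that dividing cells need to enter and pass through mitosis: the cyclin genes CCNA2, CCNB1 and CCNB2, the kinase genes CDK1, PLK1 and AURKA, the phosphatase genes CDC25B and CDC25C, and the proliferation markers MKI67 and TOP2A. They were picked by name, and each matched 1 row of the 32985 genes in the deposited table. RNA was measured in 8505C, an established anaplastic thyroid cancer (ATC) cell line, in 3 libraries of cells given a control siRNA (siCtrl, genotype label WT) and 3 of cells given siRNA against NUF2 (siNUF2, genotype label NUF2 knockdown), all labelled 24 h. All cells grew in RPMI-1640 with serum and no drug is named for any library. Limits of the model are that 1 cell line was used, that the methods list 1 siRNA sequence for NUF2, and that no library with a second siRNA or with NUF2 put back is among those analysed here. The question was whether the mRNA of genes that cells raise in G2 and mitosis differed after NUF2 knockdown, as it could if cells were held in mitosis.

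Cells commit to mitosis when CDK1, bound to cyclin B, becomes active. Cyclin A, encoded in these cells by CCNA2, carries cells through S phase and G2, and the B cyclins take over at the G2/M boundary. WEE1 and PKMYT1 hold CDK1 off by phosphorylating it, the CDC25 phosphatases remove those phosphates, and PLK1 and Aurora A push the switch forward. In the course of mitosis the anaphase-promoting complex (APC/C) destroys the cyclins, PLK1 and Aurora A, so much of this control is on protein and is not seen in mRNA. The mRNAs nevertheless rise from S phase to G2/M, since the MuvB, B-MYB and FOXM1 factors act on a shared promoter element, the cell cycle genes homology region (CHR).

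The promoters of these genes are shown first because the CHR is an element that many mitotic genes carry. RefSeq promoter windows on GRCh38.p14, from 250 bases before to 50 after a gene's start, were at hand for 9 of the 10 genes (AURKA had no entry), taking for each gene the window nearest to the start in the deposited table. The CHR letters TTTGAA, searched on both strands, were in 6 of the 9 windows and in 15.2% of all 35116 windows. The related letters TTCGAA were in 0 of the 9 and in 1.45% of all. A CCAAT box, the site of the NF-Y factor, was in 8 of the 9 windows and in 34.6% of all. An E2F site, written TTGGCGC or with other middle letters as TTCGCGC or, in its remaining forms, as TTCCCGC and likewise TTGCCGC, was in 3 of the 9, those of CCNB1, CDK1 and CDC25B, and in 13.0% of all. Each stretch below is 26 bases long and reads 5′ to 3′ along the gene, with the CHR letters in capitals. They are shown so that CDC25C, which differed most in expression, can be set beside the other genes that carry the same letters. Each line names the gene, the stretch and its strand, and the place of the first CHR base counted from the first base of the RefSeq gene, which for PLK1 lies 1233 bases from the start in the deposited table.
CCNB2, chr15:59105107-59105132, plus strand, at -29: cgacgcggtaTTTGAAtcctggaaca
CDK1, chr10:60778160-60778185, plus strand, at -161: gtataataaaTTTGAActgtgccaat
PLK1, chr16:23678850-23678875, plus strand, at -29: cagcgccgcgTTTGAAttcggggagg
CDC25C, chr5:138331828-138331853, minus strand, at 44: ttactgggctggcggaaggTTTGAAt
MKI67, chr10:128126437-128126462, minus strand, at -29: ttcgttttcgTTTGAAttgggcgggc
TOP2A, chr17:40418075-40418100, minus strand, at -194: agtggtgcctTTTGAAgcctctctag
MKI67 and TOP2A hold a further copy each, at -47 and, on the other strand, at -151, while CCNA2, CCNB1 and CDC25B hold none in their windows. These matches are letters in a window, and whether a factor bound there was not measured.

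NUF2 (ENSG00000143228), the target, was checked first. Its FPKM (the authors' level, which corrects counts for gene length and library size) was between 12.2 and 14.8 in the siCtrl libraries and between 1.53 and 2.05 in the siNUF2 libraries, so the groups did not overlap and 12.4% of the control mean was left. Total counts were between 61257859 and 69755291 per library. The 8505C cells carried the keratins KRT7, KRT8 and KRT18 at high levels in every library (KRT7 at 354 FPKM or more) and KRT19 at 5.37 to 12.4, while EPCAM and CDH1 stayed at 0.243 and 0.0227 or less. Of 6 thyroid markers measured, 5 stayed under 1 FPKM in every library, thyroglobulin (TG) among them, and NKX2-1 was at 14.6 or more. Of 5 leukocyte markers measured, 2 stayed under 1 FPKM in every library (PTPRC at 0.518 or less), and their sum was between 5.72 and 17.0 FPKM in siCtrl and between 6.28 and 7.82 in siNUF2 libraries. Of 4 endothelial markers 3 stayed under 1 FPKM, PECAM1 among them.

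In siCtrl cells these genes were highly expressed. CCNB1 was the highest, at 111 ± 0.669 FPKM (SD, n = 3), above 97.6% of the genes tested. TOP2A, the topoisomerase that untangles sister DNA, followed at 56.5 ± 7.29 FPKM and AURKA, the Aurora A kinase of spindle poles, at 51.0 ± 4.87 FPKM, and their libraries overlapped. CDC25B was at 43.9 ± 1.95 FPKM. PLK1 (34.3 ± 3.62) and CCNA2 (33.6 ± 2.11) could not be put in order, since their libraries overlapped. Then came CCNB2 at 28.7 ± 0.846, CDK1 at 24.2 ± 0.937, MKI67 at 19.7 ± 0.795 and, as the lowest, CDC25C at 9.19 ± 0.274 FPKM, above 63.5% of the genes tested. Between 1509 and 33351 counts stood behind each value, so counting error alone was at most 2.57% of a value. In siNUF2 cells the order of the means changed only in the neighbouring pairs TOP2A and AURKA, and CDK1 and MKI67. Within each of these pairs the siNUF2 libraries overlapped, so neither pair could be put in order there.

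**Figure D1:**
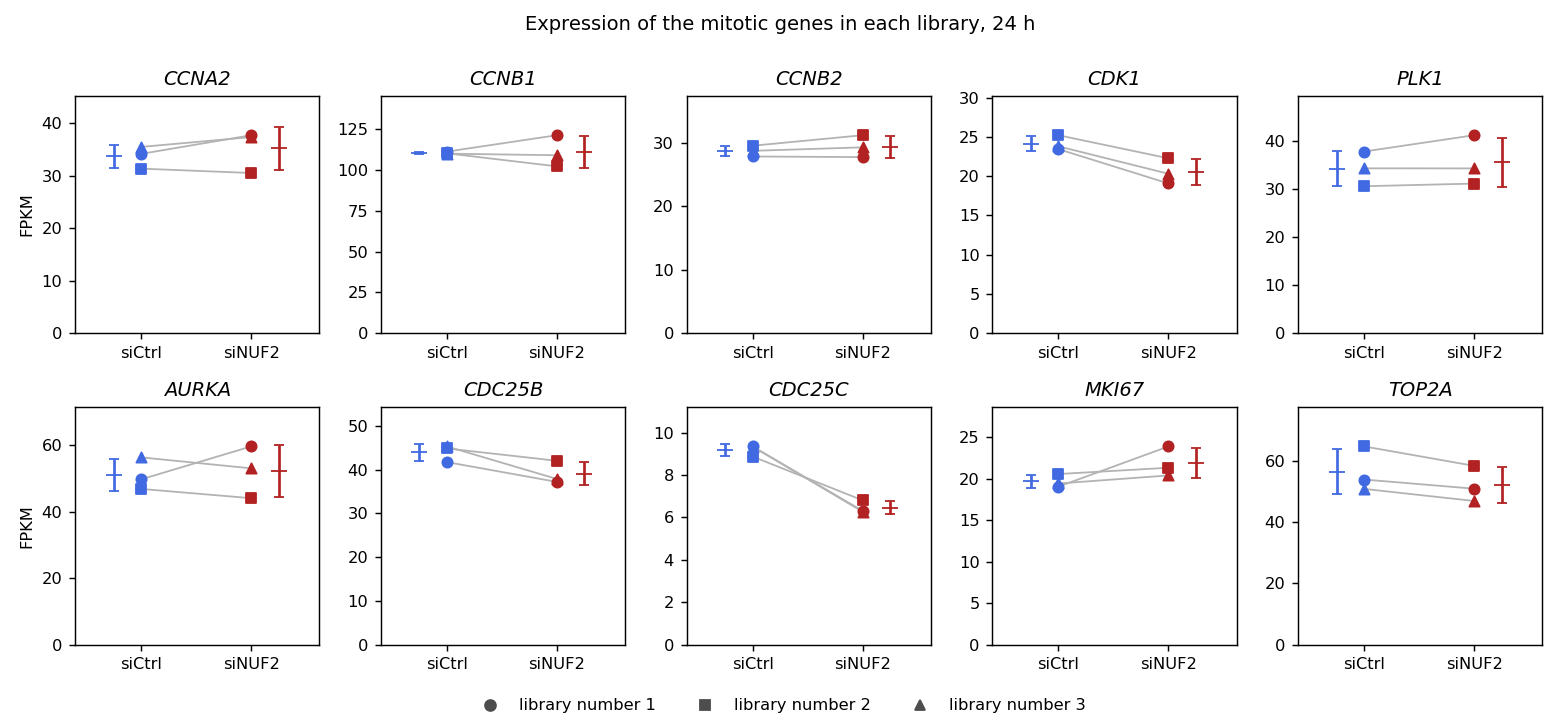
FPKM of each of the 10 genes (vertical axis, from 0) in the 3 siCtrl (blue) and 3 siNUF2 (red) libraries at 24 h; marker shapes give the library number, grey lines join libraries of the same number, and the bars beside the points are mean ± SD (n = 3). CDC25C and CDK1 are the genes whose siNUF2 libraries all sit below their siCtrl libraries; for the other 8 the groups overlap.

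No cyclin, kinase or proliferation marker of the set was higher in siNUF2 cells by the test. In edgeR's quasi-likelihood fit over 11725 genes, 0 of the 10 genes had an adjusted p under 0.05, against 3.99% of all genes tested, and 1, CDC25C, had an unadjusted p under 0.05, against 18.2%. The fitted log2 fold change (siNUF2 over siCtrl) was above 0 for 6 genes and below 0 for 4, with a median of 0.04 beside 0.01 over all genes tested. With the library number as a block, given because libraries of the same number deviated together, 1 of the 10 passed, CDC25C, which was lower, against 14.5% of all genes (7.91% lower), and 2, CDC25C and CDK1, had an unadjusted p under 0.05, against 29.9%. DESeq2 called 1 (all genes, 8.29%, and 4.81% lower) and limma on log2(FPKM + 1) called 1 (all genes, 3.08%, and 2.08% lower), and each time it was CDC25C. The groups did not overlap for 2 of the 10, both lower in siNUF2 cells, where 23.9% of all genes did not overlap and 13.4% were lower.

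The cyclins were at nearly the same level in both groups. CCNB1 (ENSG00000134057, chromosome 5, 69167135 to 69178245), which activates CDK1 at mitotic entry, was, with coordinates here as in the deposited table (GRCh38), at 111, 110.2 and 110.0 FPKM in siCtrl libraries 1, 2 and 3 and at 121, 102 and 109 in siNUF2 libraries 1, 2 and 3. The siNUF2 libraries lay on both sides of the siCtrl libraries and were spread more widely. Its log2 fold change was 0.02 (standard error 0.09, 95% interval -0.18 to 0.23, adjusted p = 0.927 by edgeR), so the interval reached up to a 1.17-fold higher level. CCNB2 (ENSG00000157456, chromosome 15, 59105126 to 59125045), the second B cyclin, was at 27.8, 29.5 and 28.7 FPKM in siCtrl and at 27.7, 31.2 and 29.3 in siNUF2 libraries. Its log2 fold change was 0.06 (interval -0.16 to 0.27, adjusted p = 0.816 by edgeR). CCNA2 (ENSG00000145386, chromosome 4, 121816444 to 121823883) was at 34.1, 31.3 and 35.4 FPKM in siCtrl and at 37.7, 30.5 and 37.3 in siNUF2 libraries, with a log2 fold change of 0.08 (interval -0.17 to 0.34, adjusted p = 0.764 by edgeR). For CCNA2, library 2 was the lowest in each group. CCNA2 overlaps EXOSC9 on the other strand in the table, and whether counting used strand is not given in the sources used here.

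Among the kinases, the groups did not overlap for CDK1 and did for PLK1 and AURKA. CDK1 (ENSG00000170312, chromosome 10, 60778331 to 60794852), the kinase of mitotic entry, was at 23.4, 25.2 and 23.8 FPKM in siCtrl and at 19.1, 22.3 and 20.3 in siNUF2 libraries. The highest siNUF2 library was below the lowest siCtrl library, and the mean was 85.1% of the control mean. The difference did not pass the test, and its log2 fold change was -0.21 (standard error 0.10, interval -0.44 to 0.01, adjusted p = 0.312) without the block and -0.21 (interval -0.38 to -0.05, adjusted p = 0.0876) with it. PLK1 (ENSG00000166851, chromosome 16, 23677656 to 23690366), which acts on centrosomes, kinetochores and CDC25, was at 37.9, 30.6 and 34.4 FPKM in siCtrl and at 41.3, 31.2 and 34.4 in siNUF2 libraries, and its log2 fold change was 0.07 (interval -0.22 to 0.37, adjusted p = 0.827 by edgeR). AURKA (ENSG00000087586, chromosome 20, 56369389 to 56392296) was at 49.7, 46.9 and 56.4 FPKM in siCtrl and at 59.7, 44.1 and 53.1 in siNUF2 libraries, with a log2 fold change of 0.05 (interval -0.24 to 0.35, adjusted p = 0.876 by edgeR). Both genes were spread over a wider range within a group than between the groups.

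CDC25C showed the largest difference of the 10. CDC25C (ENSG00000158402, chromosome 5, 138285265 to 138331877), a phosphatase that activates CDK1, was at 9.36, 8.88 and 9.35 FPKM in siCtrl and at 6.31, 6.81 and 6.27 in siNUF2 libraries. No siNUF2 library reached the lowest siCtrl library, 70.3% of the control mean was left, and the gap between the groups was larger than the spread within either (exact permutation test, two-sided, p = 0.1, the smallest that 3 against 3 can give). The log2 fold change was -0.49 (standard error 0.11, interval -0.74 to -0.23). Its adjusted p from edgeR was 0.0529 without the block and 0.0227 with it, on either side of the threshold. The unadjusted p hardly moved between these edgeR fits (0.00220 and 0.00190), and some settings without the block called the gene too. Over 9 other settings, the block included, the adjusted p ran from 0.00544 to 0.137, with 6 of the 9 under 0.05, and the log2 fold change lay between -0.53 and -0.46 whichever library was omitted, while the adjusted p was then between 0.0841 and 0.177. CDC25B (ENSG00000101224, chromosome 20, 3786772 to 3806121), which starts CDK1 activation at centrosomes, was at 41.7, 44.8 and 45.3 FPKM in siCtrl and at 37.2, 42.0 and 37.8 in siNUF2 libraries. The groups overlapped through siNUF2 library 2, and the log2 fold change was -0.15 (interval -0.37 to 0.07, adjusted p = 0.467 by edgeR). The third family member, CDC25A, which acts mainly at the G1/S boundary, had a log2 fold change of 0.46 (standard error 0.13), with an adjusted p from edgeR of 0.112 without the block and 0.0277 with it. Without a block DESeq2 called it too (adjusted p = 0.0370). With the block, then, CDC25A passed as higher and CDC25C as lower, while CDC25B did not pass.

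The proliferation markers did not pass the test in either direction. MKI67 (ENSG00000148773, chromosome 10, 128096659 to 128126423), whose protein is the Ki-67 antigen that coats mitotic chromosomes, was at 19.1, 20.6 and 19.4 FPKM in siCtrl and at 23.9, 21.3 and 20.4 in siNUF2 libraries. The siNUF2 libraries were the higher ones except for an overlap between siNUF2 library 3 and siCtrl library 2, and the log2 fold change was 0.17 (interval -0.04 to 0.38, adjusted p = 0.386 by edgeR). TOP2A (ENSG00000131747, chromosome 17, 40388525 to 40417896) was at 53.9, 64.7 and 50.8 FPKM in siCtrl and at 50.9, 58.4 and 46.9 in siNUF2 libraries, with a log2 fold change of -0.10 (interval -0.39 to 0.19, adjusted p = 0.760 by edgeR). In both groups library 2 was the highest for TOP2A and library 3 the lowest. In these bulk libraries, fewer cells in a cell cycle phase and less RNA per cell cannot be told apart.

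**Figure D2:**
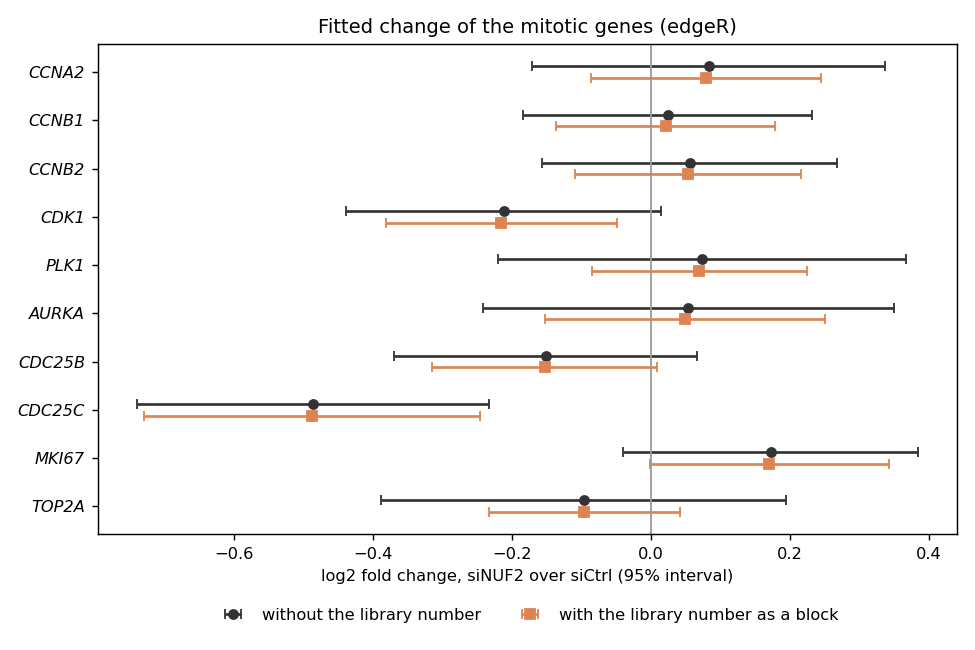
Fitted log2 fold change (horizontal axis, siNUF2 over siCtrl, edgeR) of the 10 genes with 95% intervals, without the library number (black circles) and with it as a block (orange squares). The intervals of CDC25C lie below 0 in both fits, that of CDK1 does so with the block, and those of the other 8 include 0.

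The upper ends of the intervals say how large a rise could have gone unseen. For the 6 genes with a log2 fold change above 0 they stood between 1.17-fold (CCNB1) and 1.31-fold (MKI67) without the block, and between 1.13-fold and 1.27-fold with it. For TOP2A, CDC25B and CDK1 they were 1.14-fold, 1.05-fold and 1.01-fold without the block, and 1.03-fold, 1.01-fold and 0.966-fold with it. The upper end for CDC25C was 0.851-fold without the block and 0.844-fold with it. Without the block, the interval of CDC25C ended below where those of CCNA2, CCNB1, CCNB2, PLK1 and MKI67 began, and overlapped those of CDK1, AURKA, CDC25B and TOP2A. With the block, it also ended below where those of AURKA and TOP2A began, and overlapped those of CDK1 and CDC25B. The differences between genes were not themselves tested in the fit.

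Ratios between 2 genes within a library do not depend on library scaling, and 5 were taken, outside the plan. CCNB2 over CDK1, as a ratio of FPKM, was 1.19, 1.17 and 1.21 in siCtrl and 1.45, 1.40 and 1.44 in siNUF2 libraries, with no overlap. The means were 1.19 ± 0.0180 and 1.43 ± 0.0284 (SD, n = 3). CDC25C over CDC25B was 0.224, 0.198 and 0.206 in siCtrl and 0.170, 0.162 and 0.166 in siNUF2 libraries, also with no overlap. Each of these ratios holds CDK1 or CDC25C, whose own groups did not overlap, so they are not separate evidence. Ratios of other gene pairs were not counted. CCNB1 over CDK1 (4.37 to 4.75 in siCtrl, 4.59 to 6.36 in siNUF2) and CCNA2 over CDK1 (1.24 to 1.49 and 1.37 to 1.97) overlapped, as did CCNB1 over CCNB2 (means 3.85 and 3.79). Over these 5 ratios the exact permutation tests, two-sided, gave p = 0.1 for both ratios without overlap, the smallest possible, and 0.25 after adjustment, so this test cannot pass the threshold with 3 libraries against 3.

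For several of these genes the library number held a larger share of the variation than the siRNA. The sum of squares of log2 CPM (counts scaled to library size with TMM factors) was split into siRNA, library number and remainder, as a description. The number has more degrees of freedom than the siRNA, so its share is on average larger even with no effect of either. How many of all genes have a larger share for the number was not counted, but their median shares ran the same way. The number took a larger share than the siRNA in 6 of the 10 genes. It held 91.7% for PLK1, 89.5% for TOP2A, 80.7% for CCNA2, 71.9% for CCNB2, 68.8% for AURKA and 55.6% for CCNB1, where the median of all genes tested was 46.9%. The siRNA held 95.6% for CDC25C, 64.7% for CDK1, 59.8% for MKI67 and 52.1% for CDC25B, against a median of 22.8%. In the blocked edgeR fit, the number term had an adjusted p under 0.05 for 0 of the 10 genes, against 7.6% of all genes. The smallest adjusted p from edgeR were 0.0572 for TOP2A and 0.0867 for PLK1, and these 2 genes alone had an unadjusted p under 0.05, against 27.1% of all genes. The lowest library of a group had the same number in siCtrl and siNUF2 for 8 of the 10 genes. The share of all genes with this pattern was not counted. Over all genes tested, libraries of the same number also deviated together (correlations of 0.344 to 0.446). Library 2 was lowest in both groups for CCNA2, CCNB1, PLK1 and AURKA, and library 1 for CCNB2, CDK1 and CDC25B. What a number shares is not given in the sources used here, and its part in these differences was not tested further.

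**Figure D3:**
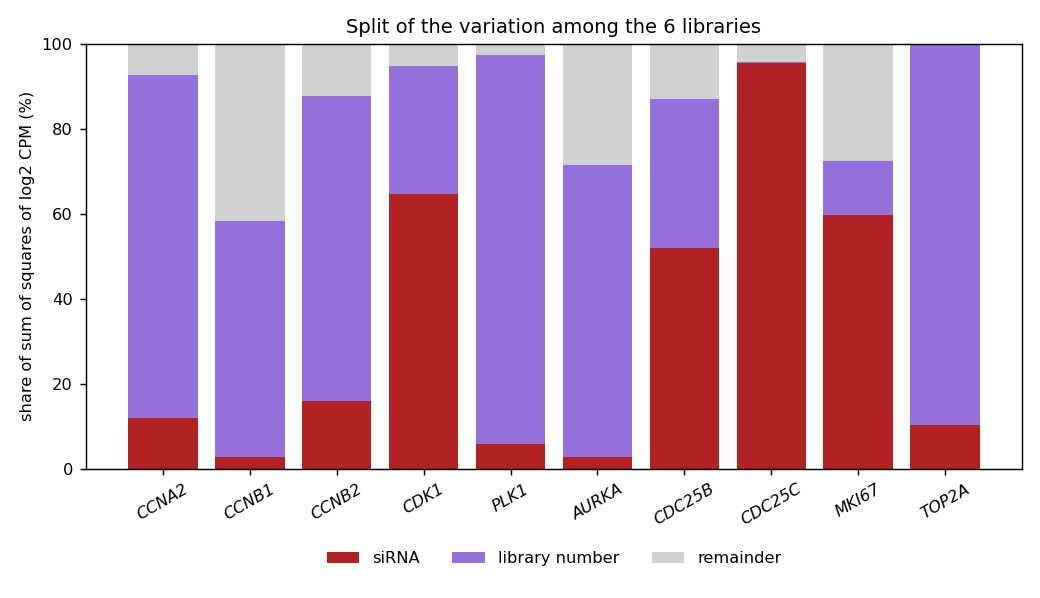
Share of the sum of squares of log2 CPM over the 6 libraries (vertical axis, %) that fell to the siRNA (red), the library number (purple) and the remainder (grey) for each of the 10 genes. CDC25C is nearly all siRNA (95.6%), while PLK1 and TOP2A are mostly library number (91.7% and 89.5%).

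Within pairs of libraries of the same number, 7 of the 10 genes kept 1 sign in all 3 pairs, against 51.8% of all genes tested. CDC25C (log2 ratios of CPM of -0.56, -0.34 and -0.56 for numbers 1, 2 and 3), CDK1 (-0.29, -0.14 and -0.21), CDC25B (-0.16, -0.06 and -0.24) and TOP2A (-0.08, -0.11 and -0.10) were lower in every pair, as were 25.3% of all genes. MKI67 (0.33, 0.09 and 0.09), PLK1 (0.13, 0.06 and 0.02) and CCNB2 (0.0016, 0.12 and 0.04) were higher in every pair, as were 26.5% of all genes. CCNB1 (0.13, -0.07 and 0.0038), CCNA2 (0.15, -0.0017 and 0.09) and AURKA (0.27, -0.05 and -0.07) changed sign between pairs. The median over the 10 genes was 0.07 in pair 1, -0.05 in pair 2 and -0.03 in pair 3, so the set as a whole had no common direction.

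Genes that act on CDK1 were read next, from a list of 18 with all 18 tested. Without the block 2 passed, where 3.99% of all genes did. With it 6 passed, 2 higher and 4 lower, where 14.5% of all genes did. CDK7, the catalytic subunit of the CDK-activating kinase, fell from 23.7 ± 1.60 to 12.5 ± 0.405 FPKM (log2 fold change -0.90, standard error 0.10, adjusted p = 0.00428 by edgeR). ENSA, which once phosphorylated by the Greatwall kinase inhibits the phosphatase PP2A-B55, rose from 13.2 ± 1.48 to 22.5 ± 1.11 FPKM (0.78, adjusted p = 0.00947 by edgeR). WEE1, the kinase that opposes CDC25, had a log2 fold change of -0.48 with an adjusted p of 0.309 without the block and 0.00550 with it (edgeR). So with the block WEE1, which holds CDK1 off, and CDC25C, which turns it on, were both lower. The list's median was 0.13.

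Of 20 genes of the APC/C and its partners, all tested, 1 passed without the block and 2 with it, both lower, which is near or below the 3.99% and 14.5% of all genes, and the median was -0.03. CDC27, a subunit of the APC/C, fell from 17.9 ± 0.471 to 11.0 ± 0.921 FPKM (log2 fold change -0.69, adjusted p = 0.00947 by edgeR). ANAPC13, another subunit, had a log2 fold change of -0.33, with an adjusted p of 0.164 without the block and 0.0250 with it (edgeR). A list of 17 genes held the MuvB, B-MYB, FOXM1 and DREAM factors that act through the CHR and E2F sites. It also held the genes of NF-Y, the factor of the CCAAT box. Of the 17, 0 passed without the block (3 at an unadjusted p under 0.05, near the 18.2% of all genes). With it 3 passed, all higher, where 14.5% of all genes were called in either direction and 6.64% as higher. MYBL2, which encodes B-MYB, was at 36.2 ± 9.18 and 53.2 ± 9.28 FPKM (log2 fold change 0.58, adjusted p = 0.177 without and 0.00885 with the block, edgeR). TFDP2, a partner of E2F proteins, and RBL1, which encodes p107, had log2 fold changes of 0.30 and 0.33, with adjusted p of 0.0438 and 0.0464 with the block (edgeR). Without a block DESeq2 called MYBL2 (adjusted p = 0.0361) and not TFDP2 or RBL1 (0.276 and 0.310).

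Of 22 other genes expressed in G2/M, 0 passed without the block (6 at an unadjusted p under 0.05, where 18.2% of all genes were) and 5 with it, 4 higher and 1 lower, where 6.64% of all genes were higher and 7.91% lower. The list's median was 0.06. BIRC5, which encodes survivin of the chromosomal passenger complex, was at 22.9 ± 2.82 and 31.9 ± 1.50 FPKM, with a log2 fold change of 0.50 and an adjusted p of 0.0548 without and 0.00550 with the block (edgeR). CENPF (0.30), DLGAP5 (0.30) and TACC3 (0.30), which act at kinetochores and on the spindle, had adjusted p of 0.0250, 0.0287 and 0.0341 with the block (edgeR). Without a block DESeq2 called BIRC5 (adjusted p = 0.00399) and not CENPF, DLGAP5 or TACC3 (0.0862, 0.187 and 0.0787).

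By number of genes, the list with the most calls under the block was that of G1/S and S-phase genes. Of 22 genes, 1 passed without the block and 10 with it, 9 of them higher where 6.64% of all genes were, and the list's median was 0.31 beside 0.04 for the 10 mitotic genes and 0.01 for all genes tested. RRM1, the large subunit of ribonucleotide reductase, rose from 48.0 ± 2.41 to 62.6 ± 3.80 FPKM (log2 fold change 0.40, adjusted p = 0.0488 without and 0.00919 with the block, edgeR). Its partner RRM2 had a log2 fold change of 0.54, the replication helicase gene MCM2 one of 0.46 and CCNE1, cyclin E1, one of 0.83, and in edgeR these passed with the block and not without it (adjusted p with the block = 0.00386, 0.00516 and 0.0106). Without a block DESeq2 called RRM1 and RRM2 (adjusted p = 0.00446 and 0.00295) and not MCM2 or CCNE1 (0.0991 and 0.0526). Among G1 cyclins, their kinases and CDK inhibitors, 10 of 12 were tested, 1 passed without the block and 5 with it, 2 higher and 3 lower, where 3.99% and 14.5% of all genes passed. That is a larger share of its tested genes than in the G1/S list. CCND1, cyclin D1, fell from 121 ± 6.57 to 77.7 ± 4.75 FPKM (log2 fold change -0.62, adjusted p = 0.0127 by edgeR). CDKN1A, which encodes the CDK inhibitor p21, was at 20.7 ± 8.02 and 10.8 ± 4.79 FPKM, a log2 difference of -0.93 (adjusted p = 0.211 without and 8.1e-04 with the block, edgeR), while the kinase gene CDK6 (0.81, adjusted p = 0.148 and 0.00689 by edgeR) and the inhibitor gene CDKN2A (0.45, 0.203 and 0.00874) were higher with the block. Without a block DESeq2 called CDK6 (adjusted p = 0.00814) and not CDKN1A or CDKN2A (0.289 and 0.102). Of 7 tested relatives of the 10 genes (other cyclins, CDC25A, Polo-like and Aurora kinases and TOP2B), 0 passed in edgeR without the block, where 3.99% of all genes did. Without it 1 had an unadjusted p under 0.05, as had 18.2% of all genes. With the block 1 passed, CDC25A, as higher, where 14.5% of all genes passed and 6.64% were higher. CDC25A is also in the list of genes that act on CDK1. The lists differ in size and were not tested against all genes or against each other.

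**Figure D4:**
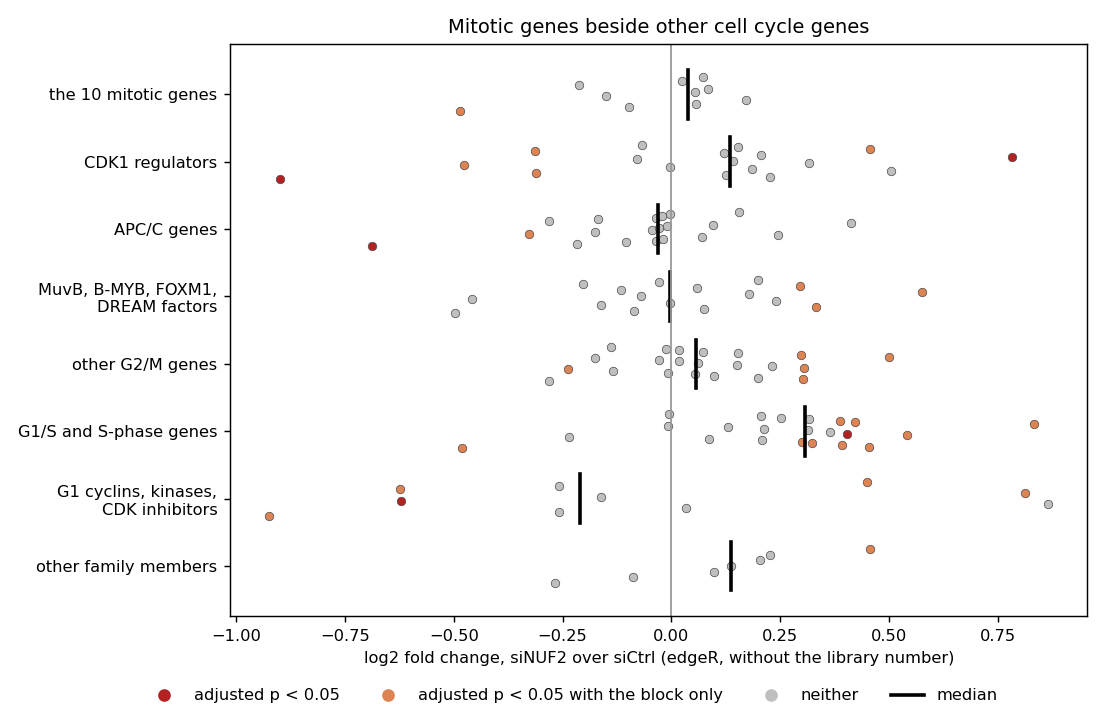
Fitted log2 fold change (horizontal axis, siNUF2 over siCtrl, edgeR without the library number) of each tested gene of the 10 mitotic genes and of 7 other cell cycle lists, with the list median as a black bar. Red points passed at an adjusted p under 0.05, orange points only with the library number as a block; the G1/S list has its median at 0.31 and the mitotic genes theirs at 0.04.

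A sequence feature of the mRNAs was also counted. TATGGAA, 7 bases long, is the match to the seed (bases 2 to 8) of the antisense siRNA strand listed in the study's methods, and siRNAs can lower mRNAs that carry such a word in the 3′ UTR. In the longest 3′ UTR of a protein-coding GENCODE release 44 transcript, it was present in 0 of the 10 mitotic genes, in 16.1% of 10174 tested genes with such a 3′ UTR, and in 58.8% of the 284 that were lower by edgeR without the block. Of the 174 that were higher in that fit, 10.3% held it. The 3′ UTR of CDC25C holds 0 copies of the 7-base word and 1 of its 6-base core ATGGAA, and that of CDK1 holds 0 of either. Of the wider-list genes called lower in either fit and named in the text, CDC27 holds 2 copies of the 7-base word, CCND1, ANAPC13 and SLBP 1 each, and CDK7, WEE1, CDKN1A, CCNH and KPNA2 0. Of those called higher in either fit and named in the text, CCNE1 and TFDP2 hold 1 copy each and the rest 0. The part of this word in any of these differences was not tested.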

How the data were processed

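RNA-seq of 8505C cells, 3 siCtrl and 3 siNUF2 libraries, was used as deposited. Read filtering was done by the authors in fastp, alignment to GRCh38 in HISAT2 and expression estimation in StringTie. The deposited table holds FPKM, which the authors corrected for gene length and library size, and raw whole-number counts per gene. Versions, annotation release, strand setting and the tool behind the counts are not given in the sources used here. The columns named KD were matched to siNUF2 by the genotype label and number.

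A 6-library mean FPKM of 1 or more was required (11725 of 32985 genes, with all 10 genes among them), and these genes were tested on counts with edgeR 4.0.16 in R 4.3.3 (TMM, quasi-likelihood test, Benjamini-Hochberg adjustment over all genes tested, threshold 0.05). Standard errors and 95% intervals came from the weighted covariance of the coefficients with the posterior quasi-dispersion. Libraries with the same number deviated together (correlations of deviations from group means of 0.344 to 0.446, against -0.263 to -0.141 for other numbers), so the fit with the number as a block is given beside the results it changes. No label says that the libraries came from separate cultures, so p-values measure the spread between these samples, which may be technical. No library was a copy of another (chi-square divided by its degrees of freedom, within groups, 90.1 to 132).

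Alternatives were limma 3.58.1 on log2(FPKM + 1) and log2(FPKM + 0.1), DESeq2 1.42.0, other scalings and filters, and leaving out each library. The code was tested on simulated data. The 10 genes and all lists were chosen with earlier results of these data known. Named genes are the 10, NUF2 and, of each wider list, up to 4 genes with the smallest adjusted p among those that passed in either fit, together with the 5 genes most like the mean of the 10. CCNH, MNAT1, KPNA2 and SLBP fall outside this rule and were chosen after their values were seen. The marker TSHR was not analysed here, and some other markers are not reported here. Protein features were planned but not computed.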

Additional observations from a re-analysis of the deposited data

How the results depend on the processing

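The number of genes called of all tested was 468, and it was 1705 with the library number as a block (replicate block), 972 with DESeq2 and 188 with no filter, where 32985 genes were tested. It was between 124 and 251 with 1 library left out, when fewer samples entered the fit. Of the 10 genes, 0 were called, and 1, CDC25C, was called with the replicate block, with total count scaling, with DESeq2, with limma on log2(FPKM + 1) or log2(FPKM + 0.1), and with a mean FPKM of at least 5. At an unadjusted p, a rule added after the data were seen, 1 was called too. With a library left out the number was 0 each time. The median over the 10 genes moved between -0.041 and 0.041 with a library left out, and only leaving out siNUF2 replicate 1 turned it below 0. Of 113 tested genes of the wider lists 5 were called, where 3.99% of all genes were. With the replicate block 31 were, where 14.5% of all genes were, and with DESeq2 12 were, where 8.29% of all genes were. With a library left out between 2 and 5 were called, with 2 without siNUF2 replicate 1 and 3 without siCtrl replicate 3. Of 90 fits of the single genes under the other settings, 84 kept direction and side of the threshold and 6, all CDC25C, passed it. With a library left out, the log2 fold changes of CCNB1 (-0.037 to 0.074), PLK1 (-0.038 to 0.15), AURKA (-0.043 to 0.16) and TOP2A (-0.19 to 0.011) crossed 0, so their direction rests on single libraries. The causes were not tested. The replicate block changed the call of no other of the 10 genes.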

Other observations

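The CDK-activating kinase is made of CDK7, cyclin H and MAT1, and its genes, picked after their values were seen, did not move alike. CCNH, for cyclin H, was at 11.5 ± 0.800 and 9.12 ± 0.247 FPKM (SD, n = 3), with a log2 fold change of -0.31 and an adjusted p from edgeR of 0.128 without and 0.0279 with the library number as a block. MNAT1, for MAT1, was at 8.75 ± 0.934 and 9.39 ± 0.959 FPKM, with a log2 fold change of 0.12 (adjusted p = 0.695 without and 0.412 with the block, edgeR). CDK7, described above, was lower in both fits.

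Also picked after their values were seen, KPNA2, an importin gene expressed in G2/M, was at 144 and 120.5 FPKM in the mean (log2 fold change -0.24, adjusted p = 0.215 without and 0.0399 with the block, edgeR). SLBP, whose protein binds the stem-loop of histone mRNAs, had a log2 fold change of -0.48 (0.104 and 0.0222) and was the 1 gene of the G1/S list that passed as lower in edgeR with the block, and it did so in DESeq2 without it (adjusted p = 0.0235).

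The 5 tested genes whose log2 CPM over the 6 libraries followed the mean standardized profile of the 10 mitotic genes most closely were ANKFY1, MIR589, HNRNPKP4, TLCD3A and ZSWIM3 (Pearson correlations from 0.914 to 0.939 over 6 libraries that share depth and number, as a description). That profile was shallow, between -0.25 and 0.19 standard deviations in a library, and the 10 genes did not share 1 pattern.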
